A study of Mus musculus with 4 samples.

Results

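The Wnt and R-spondin genes described here are 10 named genes of the count matrix, out of 54464 in all, chosen by name as the ligands, receptors and regulators that pattern the liver lobule. They are the ligands Wnt2, Wnt9b, Rspo1 and Rspo3, the receptor Lgr4, the co-receptors Lrp5 and Lrp6, the membrane inhibitors Znrf3 and Rnf43, and the transcription factor Tcf7l2. Single-nucleus RNA-Seq had been performed on liver nuclei of 3 WT mice and of 3 mice that lack Nampt in hepatocytes (HNKO), and each gene was followed across cell types and by genotype. WT mice are labelled C57BL6/BomTac Nampt cKO (wildtype) and HNKO mice C57BL6/BomTac Alb-Cre Nampt cKO (knockout). Both therefore carry the conditional Nampt allele, and Cre is driven by the albumin (Alb) promoter, a hepatocyte promoter that endothelial and stellate cells do not use. Per the study's methods the animals were female littermates, 8 to 12 weeks old at the start of 6 weeks on a purified low-fat control diet. Their cohort was the one in which part of the mice drank water with nicotinamide riboside, an NAD precursor, for the later weeks, and which had bile duct surgery on the day of sacrifice. Which of the 6 mice drank it is not given in the sources used here, so its part in any difference between mice was not tested. From each mouse 4250 nuclei were sorted, marked with an antibody hashtag of that mouse and pooled into 2 RNA and 2 hashtag libraries. The pool of a nucleus is not given in the files used here, so pools cannot be told apart.

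Hepatocytes do different work along the path of blood from the portal tract to the central vein, and Wnt/β-catenin signaling sets the central program, for example glutamine synthetase. Wnt ligands are secreted by endothelial cells at the central vein and act on Frizzled receptors with the co-receptors LRP5 and LRP6, after which β-catenin drives target genes together with TCF factors such as TCF7L2. ZNRF3 and RNF43 are membrane ubiquitin ligases that remove Frizzled receptors, are themselves Wnt targets, and are held off when an R-spondin binds LGR4 or a related receptor.

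Promoter sequence in the RefSeq set (GRCm38.p6) was found for 6 of the 10 genes, namely Wnt2, Wnt9b, Rspo1, Lgr4, Rnf43 and Tcf7l2. The 250 bases upstream of the start are shown for the 2 Wnt ligands and for Rnf43, the gene with the largest central to portal difference below. The core of the TCF/LEF motif, CTTTG, was searched on both strands and its matches are in capitals. The windows lie at chr6:18030446-18030695 (minus strand, Wnt2), chr11:103749822-103750071 (minus strand, Wnt9b) and chr11:87662837-87663086 (plus strand, the first of 2 starts of Rnf43).
Wnt2: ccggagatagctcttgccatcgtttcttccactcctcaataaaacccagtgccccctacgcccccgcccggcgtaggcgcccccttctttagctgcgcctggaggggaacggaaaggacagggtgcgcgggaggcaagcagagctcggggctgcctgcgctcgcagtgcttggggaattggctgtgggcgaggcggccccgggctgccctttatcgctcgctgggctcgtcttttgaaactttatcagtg
Wnt9b: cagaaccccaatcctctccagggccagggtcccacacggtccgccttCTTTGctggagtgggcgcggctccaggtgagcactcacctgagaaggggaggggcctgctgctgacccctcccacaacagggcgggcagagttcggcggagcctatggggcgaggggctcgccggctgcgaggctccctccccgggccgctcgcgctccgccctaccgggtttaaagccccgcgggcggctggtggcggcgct
Rnf43: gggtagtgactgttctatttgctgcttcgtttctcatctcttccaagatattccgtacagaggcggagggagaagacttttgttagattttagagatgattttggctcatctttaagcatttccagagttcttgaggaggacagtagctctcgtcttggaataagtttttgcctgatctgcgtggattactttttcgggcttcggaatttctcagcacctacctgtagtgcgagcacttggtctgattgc
The Wnt9b window held 1 match to CTTTG, the windows at both starts of Tcf7l2 held 1 match each, and those of Wnt2, Rspo1, Lgr4 and Rnf43 held 0. Of 32851 RefSeq promoter windows of the same length, 48.6% held CTTTG. The longer forms CTTTGAA and CTTTGAT, which contain CTTTG, stood in 4.46% and 3.21% of all windows and in 0 windows of the 6 genes. These are matches of letters in a short window and say nothing of whether a factor binds.

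The data held 5193 nuclei with 3766532 to 7763269 unique molecular identifiers (UMIs) per mouse and a median of 3447 to 4912 UMIs per nucleus. Nampt, the targeted gene, did not separate the genotypes: it stood at 84.8, 105 and 96.9 UMIs per 1000000 UMIs of the sum (CPM) in hepatocytes of WT mice 1, 2 and 3 and at 84.1, 148 and 90.8 in mice labelled HNKO 1, 2 and 3 (a log2 difference of 0.03 ± 0.27 SE, adjusted p = 0.98 in edgeR's quasi-likelihood test). The count takes in reads from the whole gene, so an intact level does not show that the allele is intact. Of the hashtag counts of a mouse's nuclei, 62.6% to 76.3% came from its own hashtag, except in HNKO 3 with 45.6%. Cell types are the authors' 21 named clusters, grouped into 13 hepatocyte clusters and 5 other types. Endothelial nuclei (245, 26 to 71 per mouse, sums of 89294 to 317702 UMIs) carried Stab2 at 4107 to 6618 CPM and stellate nuclei (171, 16 to 43 per mouse) carried Reln at 3139 to 7616 CPM, whereas Lrat, Pdgfrb, Hand2 and Col3a1 of the stellate markers were at 0 in endothelial nuclei. Nuclei of the 3 central hepatocyte clusters (390) carried Glul at 992 to 1620 CPM against 21.1 to 67.7 CPM in the other hepatocytes (4020). Of these 3 clusters, the one named Central HNKO 1 came to 98.9% from HNKO 1 and the one named Central HNKO 2 to 100% from HNKO 3, so that in central nuclei those clusters and those mice cannot be told apart. Differences between cell types are given as descriptions with no test, because the clusters were drawn on the same counts. A sum per mouse does not tell fewer expressing nuclei from less RNA per nucleus.

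Wnt2 was an endothelial gene in these nuclei. Wnt2 (chromosome 6, positions 17988940 to 18030585, minus strand, protein coding) gave 112.6 UMIs in 73 nuclei of all types. In endothelial sums it stood at 56.0, 99.0 and 157 CPM in WT 1, 2 and 3 and at 69.2, 152 and 64.1 CPM in HNKO 1, 2 and 3 (99.5 ± 44.9, SD, n = 6), from 5, 9, 17, 22, 28 and 10 UMIs. WT 3 and HNKO 2 were highest and the genotypes overlapped. A UMI was found in 52 of 245 endothelial nuclei (21.2%, or 14.0% after thinning) against 19 of 4410 hepatocyte nuclei (0.431%), at medians of 2444 to 3260 and 3572 to 5786 UMIs per nucleus. No Wnt2 UMI was found in stellate nuclei, where 3 counts over the sum would be 4.33 CPM, nor in the Kupffer and CD45+ sums. Hepatocytes held few: 6 UMIs in the central clusters, all from HNKO 1 and HNKO 2, and 14.3 in the others, which is 2.53% and 0.541% of the pooled endothelial level. The 8 endothelial markers stood at 0.212% to 1.01% of their endothelial level in central and at 0.180% to 0.802% in other hepatocytes, so the level outside the central clusters lay within the range of this background, and the 6 UMIs in the central clusters are too few to place against it.

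Wnt9b and Rspo1 were close to the limit of detection. Wnt9b (chromosome 11, positions 103727364 to 103749821, minus strand), the other endothelial Wnt ligand of the central vein, gave 11 UMIs in all. Of these, 8 came from endothelial nuclei of 5 mice (0, 1 and 1 in WT 1, 2 and 3, and 2, 1 and 3 in HNKO 1, 2 and 3) and 3 from hepatocytes. Rspo1 (chromosome 4, positions 124986430 to 125009099, plus strand) gave 2 UMIs, 1 in a hepatocyte of HNKO 1 and 1 in a stellate nucleus of HNKO 3. Pooled over mice, the level of Wnt9b in endothelial nuclei was 84.6 times that in hepatocytes, and it was higher there in 5 of 6 mice, with no UMI in either type in WT 1. The few molecules of both genes allowed no comparison of genotypes, and those of Rspo1 none of cell types.

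Rspo3, an R-spondin that amplifies Wnt signaling at the central vein, was the best covered ligand and its highest level was in stellate nuclei. Rspo3 (chromosome 10, positions 29452416 to 29535867, minus strand, protein coding) gave 547.5 UMIs in 137 nuclei, and it overlaps Gm20276 on its own strand, so reads may be split between them. In stellate sums it stood at 717, 1129 and 459 CPM in WT 1, 2 and 3 and at 532, 870 and 310 CPM in HNKO 1, 2 and 3 (669 ± 299, n = 6). WT 2 was highest and HNKO 3 lowest, and the genotypes overlapped. Among stellate nuclei with at least 50% of hashtag counts from their own mouse, 10 or more remained in WT 3 and HNKO 1 alone, where stellate Rspo3 was then 203 CPM in place of 459 and 512 CPM in place of 532. The UMIs were spread over many nuclei: 100 of 171 stellate nuclei held one (58.5%, or 48.7% after each nucleus had been thinned to 2000 UMIs and 7 shallower ones left out). In hepatocytes, which should lack it, 19 of 4410 nuclei held one (0.431%), at medians of 3572 to 5786 UMIs per nucleus against 2962 to 4011 in stellate nuclei. The level in other hepatocytes was 0.0965% of the pooled stellate level, below the 0.100% to 1.36% of the 8 stellate markers.

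Endothelial Rspo3 differed widely between mice. It stood at 0, 66.0 and 489 CPM in WT 1, 2 and 3 and at 18.9, 92.1 and 89.7 CPM in HNKO 1, 2 and 3 (126 ± 182, n = 6). The value of WT 3 rested on 53 UMIs in 3 of 29 nuclei, of which 1 nucleus held 29 and another 22, and without the first of these it was 228 CPM. With the hashtag limit above it was 32.5 CPM from 16 nuclei. The pooled endothelial level was 16.4% of the stellate level, above the range of the stellate markers in endothelial nuclei (0 to 1.12%). In 5 of 6 mice the stellate level was above the endothelial one, and only in WT 3 was it lower.

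**Figure D1:**
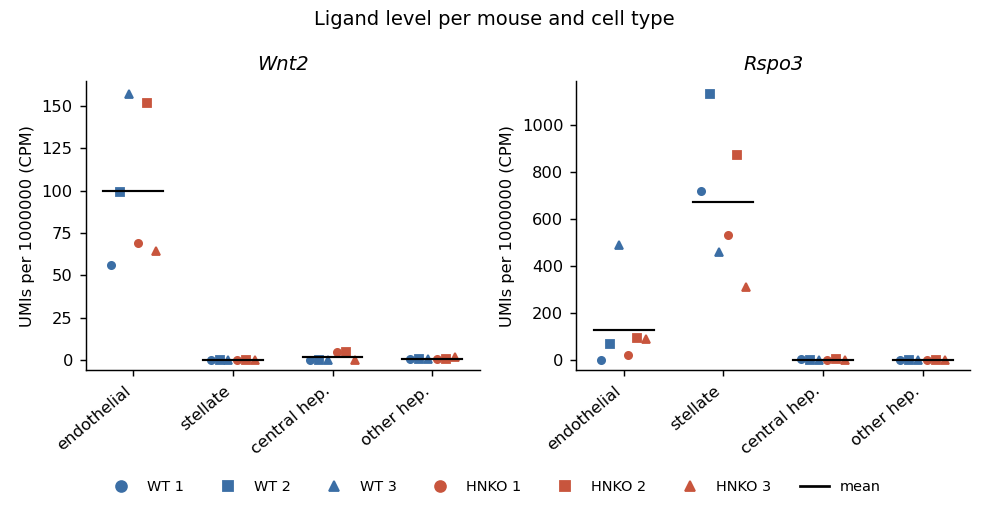
Level of Wnt2 and of Rspo3 (UMIs per 1000000, linear axis) per mouse in endothelial, stellate, central hepatocyte and other hepatocyte sums, with WT mice in blue, HNKO mice in red, a symbol per mouse and a bar at the mean of 6 mice. Wnt2 sits at 56.0 to 157 CPM in endothelial sums and near 0 elsewhere, whereas Rspo3 is highest in stellate sums (310 to 1129 CPM) with a single endothelial value of 489 CPM in WT 3.

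The ligands marked a minority of endothelial nuclei. Wnt2, Wnt9b or Rspo3 was detected in 61 of 245 endothelial nuclei (24.9%, exact 95% interval 19.6% to 30.8%, which covers counting error only). Wnt2 was found in 52, Rspo3 in 14 and Wnt9b in 7 of them. Wnt2 and Rspo3 shared 7 nuclei, Wnt2 and Wnt9b 4, and Wnt9b and Rspo3 4. Nuclei with a ligand were deeper (median 3458 against 2849 UMIs), and thinned to 2000 UMIs the share was 17.5%, with 15 shallower nuclei left out. By genotype the share was 24.7% of 81 WT and 25.0% of 164 HNKO nuclei, and after thinning 16.1% and 18.1%, with 4 and 11 left out. Per mouse it ran from 18.3% in HNKO 1 to 35.3% in HNKO 2, so that the spread between mice was wider than the gap between genotypes.

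The 5 central vein endothelial genes stood at a higher pooled level in ligand nuclei, and the 6 portal endothelial genes at a lower one. Summed over nuclei, the central vein genes reached 2291 CPM with a ligand and 1011 CPM without, and the portal genes 361 and 1268 CPM. The sum of the 8 general endothelial markers was higher with a ligand too, at 13141 against 9941 CPM, with Stab2 at 6857 against 4952. Pecam1 (404 against 412 CPM) and Flt1 (501 against 504 CPM) were not higher. The share of nuclei with any UMI of the central vein list was 95.1% with and 58.2% without a ligand, whereas for the portal list it was 67.2% and 66.3%. Every one of the 11 genes followed its list in the pooled sums. Kit, a receptor tyrosine kinase, stood at 480 against 214 CPM, the cadherin Cdh13 at 1717 against 770, thrombomodulin (Thbd) at 39.0 against 13.5, P-selectin (Selp) at 19.5 against 2.26 and the homeobox gene Lhx6 at 35.4 against 12.04. On the portal side the adhesion receptor Adgrg6 stood at 3.54 against 239 CPM, the netrin Ntn4 at 170 against 435, the scavenger receptor Msr1 at 85.0 against 372, ephrin B2 (Efnb2) at 35.4 against 107, the Notch ligand Dll4 at 17.7 against 30.1 and Ltbp4 at 49.6 against 85.8. Several of these rest on few molecules: Selp on 5.5 and 1.5 UMIs, Lhx6 on 10 and 8, and Adgrg6 on 1 in ligand nuclei and on 158.7 in 18 of the other nuclei.

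Across mice the ratio of the portal genes with to without a ligand was below 1 in all 6, at 0.825, 0.0715 and 0.221 in WT 1, 2 and 3 and at 0.345, 0.355 and 0.487 in HNKO 1, 2 and 3. The ratio of the central vein genes was 0.746, 1.02 and 4.50 in WT 1, 2 and 3, and for HNKO 1, 2 and 3 it was 1.71, 2.24 and 5.63, so that WT 1 went the other way and WT 2 was level. The 14 nuclei with Rspo3 stood out from the other 231 in the same genes: all 14 held Cdh13 (3550 against 889 CPM), with Kit at 870 against 255, Lhx6 at 138 against 11.3 and Selp at 86.2 against 2.25 CPM. The 8 stellate markers summed to 34.5 CPM in these 14 nuclei against 41.3 CPM in the other 231, from 1 UMI each of Reln and Dcn. No test was made of these contrasts, because the nuclei per mouse were too few. The greater depth and the higher sum of general endothelial markers in ligand nuclei move with these lists, and their part was not tested.

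**Figure D2:**
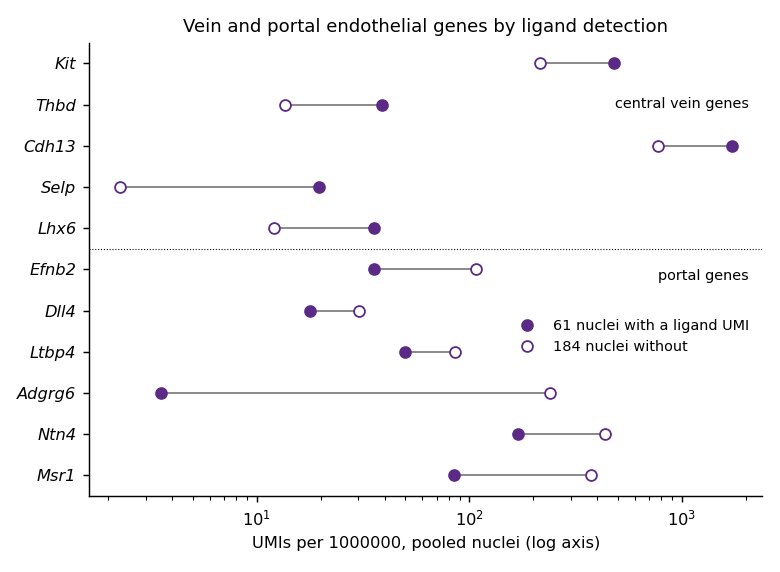
Pooled level (UMIs per 1000000, log axis) of 5 central vein and 6 portal endothelial genes in the 61 endothelial nuclei with a UMI of Wnt2, Wnt9b or Rspo3 (filled) and in the 184 without (open), joined by a line per gene. Filled points lie to the right for the central vein genes and to the left for the portal genes, with the widest gap at Adgrg6 (3.54 against 239 CPM).

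The receptor Lgr4, which binds R-spondins, was highest in hepatocytes. Lgr4 (chromosome 2, positions 109917647 to 110014257, plus strand) stood at 298, 328 and 327 CPM in other hepatocytes of WT 1, 2 and 3 and at 346, 310 and 295 CPM in those of HNKO 1, 2 and 3 (317 ± 19.5, n = 6). In central hepatocytes it was 246 ± 86.7 CPM, with HNKO 1 highest at 384 and WT 2 lowest at 132, and lower than in other hepatocytes in 5 of 6 mice. Endothelial sums held 114 ± 47.6 and stellate sums 61.1 ± 45.6 CPM. Hepatocyte RNA was present in all other types: 8 hepatocyte markers such as albumin stood at 26.0% to 39.2% of their hepatocyte level in endothelial, at 9.42% to 21.3% in stellate and at 12.2% to 31.4% in Kupffer nuclei. Lgr4 reached 36.8% in endothelial nuclei, 22.4% in stellate nuclei, which is just above the markers, and 20.1% in Kupffer nuclei. The pooled endothelial and Kupffer values are within that background and are not read as expression, although the endothelial value of WT 2 was 58.5% of its own hepatocyte level with the highest marker at 45.9%. Cholangiocytes, which only HNKO mice contribute, held 175 ± 23.8 CPM (n = 3), which is 57.8% of the pooled hepatocyte level and above the 4.42% to 26.4% of the markers.

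The co-receptors were spread over all cell types. Lrp6 (chromosome 6, positions 134446476 to 134566965, minus strand) varied least without scaling: 261 ± 37.9 CPM in endothelial, 237 ± 43.9 in stellate and 242 ± 23.5 in other hepatocyte sums, with 157 ± 45.3 in central hepatocytes, which were below the other hepatocytes in all 6 mice. Without scaling, Kupffer sums of the 3 HNKO mice were highest, at 398, 431 and 415 CPM, and did not overlap the next type. TMM scaling over the sums of all types raised other hepatocytes from 242 to 362 and lowers Kupffer sums (factors 1.11 to 1.56). The order of Lrp6 across types therefore depends on the scaling. Lrp5 (chromosome 19, positions 3584828 to 3686564, minus strand) stood at 140 ± 38.8 CPM in endothelial, 111 ± 36.3 in stellate and 75.2 ± 29.3 in other hepatocyte sums. These are 154% and 136% of the pooled hepatocyte level for endothelial and stellate nuclei, above every hepatocyte marker. In central hepatocytes Lrp5 was 69.2, 138 and 108 CPM in WT 1, 2 and 3 and 336, 176 and 94.8 CPM in HNKO 1, 2 and 3, above the other hepatocytes of the same mouse in all 6. HNKO 1 was highest there and the genotypes overlapped. Neighbouring types in the order of Lrp5 levels overlapped throughout.

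Znrf3 and Rnf43, the receptor-removing ligases, were highest in central hepatocytes. Znrf3 (chromosome 11, positions 5276324 to 5444847, minus strand) stood there at 615, 915 and 818 CPM in WT 1, 2 and 3 and at 924, 995 and 819 CPM in HNKO 1, 2 and 3 (848 ± 133, n = 6). That range did not overlap any other type, with other hepatocytes at 362 ± 43.4 and CD45+ sums at 395 ± 66.8 CPM. Rnf43 (chromosome 11, positions 87662722 to 87735539, plus strand, overlapping 1110028F11Rik on its strand) stood in central hepatocytes at 372, 755 and 457 CPM in the WT mice and at 341, 713 and 1340 CPM in the HNKO mice. HNKO 3 was the highest mouse in each hepatocyte class, at 1340 CPM in central and 368 CPM in other hepatocytes, and the ranges of both classes met. Within each mouse the central level was 2.54 to 3.87 times that of other hepatocytes for Rnf43 and 1.96 to 2.98 times for Znrf3. In endothelial nuclei Znrf3 and Rnf43 reached 35.4% and 27.4% of their hepatocyte level, within the hepatocyte background as pooled values. Cholangiocytes held both above it, at 73.2% and 47.7%. Rnf43 in stellate nuclei (17.3%) was within it too, and in Kupffer nuclei it was at 5.68%, below the markers. Znrf3 in stellate and Kupffer nuclei, at 30.4% and 32.4%, was slightly above the highest marker.

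Tcf7l2, the β-catenin partner at target genes, was highest in Kupffer nuclei. Tcf7l2 (chromosome 19, positions 55741820 to 55933654, plus strand, overlapping Ppnr on its strand) stood at 2319, 1940 and 2171 CPM in Kupffer sums of HNKO 1, 2 and 3, the mice with 10 or more such nuclei, and 63 of those 64 nuclei held a UMI. The next type, central hepatocytes, held 640 ± 110 CPM (525 to 765, n = 6) and did not overlap. Other hepatocytes held 620 ± 56.9, stellate 558 ± 149, CD45+ 494 ± 182, cholangiocyte 391 ± 71.8 and endothelial sums 364 ± 47.8 CPM, each overlapping its neighbour. Kupffer sums of the 3 WT mice held 4 to 6 nuclei each and were left out. Within the 3 HNKO mice the Kupffer level in CPM was 3.16 to 4.09 times that of other hepatocytes. With TMM scaling over the sums of all types, other hepatocytes held 927 and central hepatocytes 779. That ratio and the order of the hepatocyte classes therefore depend on the scaling.

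**Figure D3:**
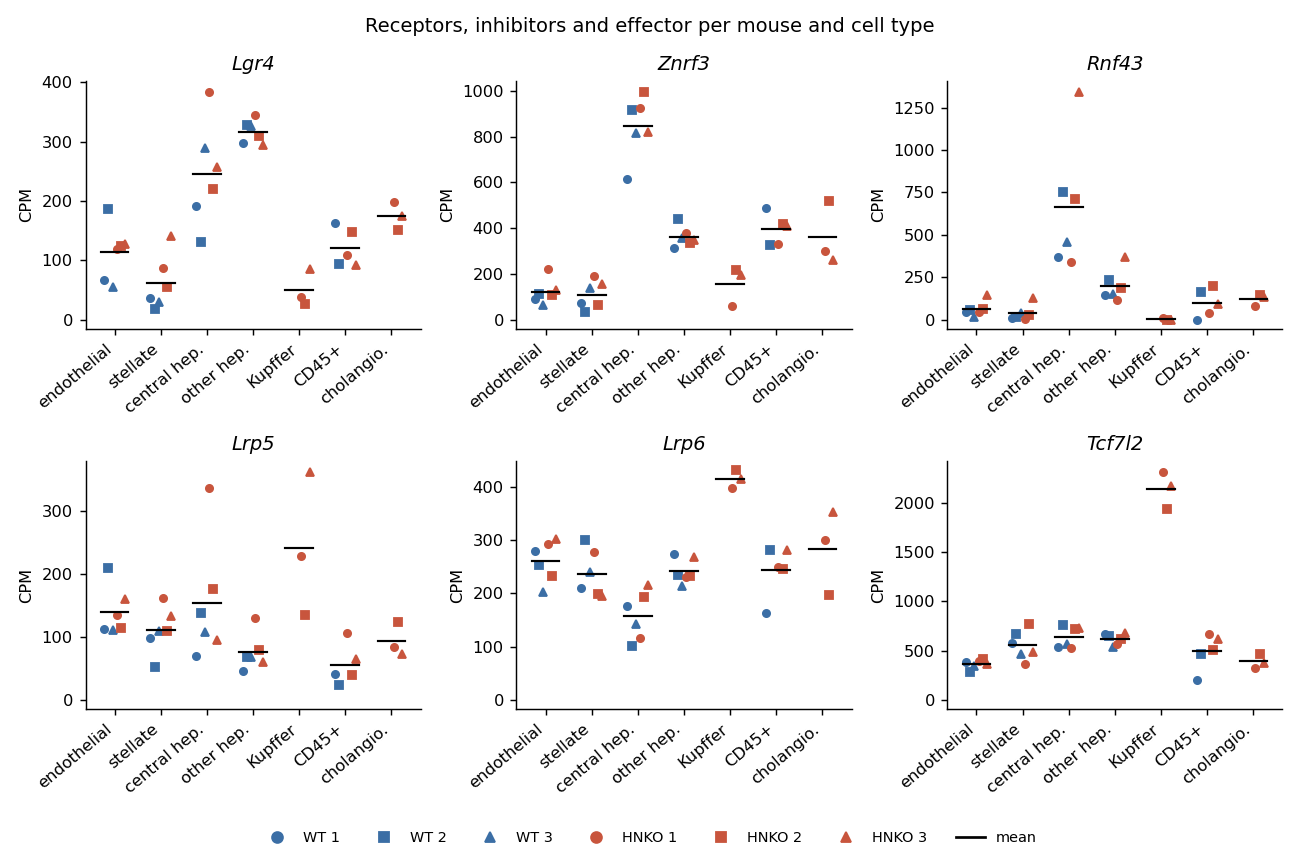
Level (UMIs per 1000000, linear axis from 0) of Lgr4, Znrf3, Rnf43, Lrp5, Lrp6 and Tcf7l2 per mouse in 7 cell types, with WT mice in blue, HNKO mice in red and a bar at the mean of the mice with 10 or more nuclei. Znrf3 and Rnf43 are highest in central hepatocytes, Lgr4 in hepatocytes, and Tcf7l2 (1940 to 2319 CPM) and Lrp6 in Kupffer sums, which only HNKO mice contribute.

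To ask how the genes vary along the lobule without using the clusters, hepatocyte nuclei with at least 5 UMIs of landmark genes (4322 of 4410) were ranked within each mouse by the share of central landmarks among 10 central and 10 portal ones, none of them among the 10 genes. The ranking was divided into 3 equal zones, and the central zone was compared with the portal zone with mouse as a block. Zones of equal size did not hold equal landmark shares. In the central zone, central landmarks were 85.3% of landmark UMIs in HNKO 3 and 54.3% to 66.9% in the other mice. Its part in differences between mice or genotypes along the lobule was not tested. Rnf43, Znrf3 and Lrp5 were higher and Lrp6 was lower in the central zone. With edgeR at an adjusted p under 0.05, 3 of the 6 genes that passed the count filter were called higher and 1 lower, where 10.8% and 7.87% of the 8499 genes tested were called (18.7% in all, and 29.7% at an unadjusted p under 0.05). The median log2 difference was 0.51 for the 6 and -0.01 for all genes. The ligands did not pass the filter in hepatocytes.

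Rnf43 had the largest difference. It stood at 91.7, 109 and 89.5 CPM in the portal zone of WT 1, 2 and 3 and at 260, 392 and 271 CPM in their central zone. In HNKO 1, 2 and 3 it went from 85.8, 115 and 235 to 231, 367 and 781 CPM. Each mouse rose, by a log2 difference of 1.74 ± 0.07 SE (edgeR, adjusted p = 3.76e-11), and HNKO 3 was highest at both ends. Znrf3 went from 233, 300 and 235 to 452, 639 and 524 CPM in the WT mice and from 290, 234 and 293 to 681, 589 and 579 CPM in the HNKO mice (1.23 ± 0.08 SE, adjusted p = 3.13e-09 with edgeR). All 6 central values were above all 6 portal ones.

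The co-receptors went in opposite directions. Lrp5 went from 37.9, 60.4 and 40.1 to 49.9, 84.6 and 94.4 CPM in WT 1, 2 and 3 and from 100, 64.9 and 38.5 to 227, 111 and 86.5 CPM in HNKO 1, 2 and 3 (log2 difference 1.03 ± 0.12 SE, edgeR adjusted p = 4.75e-06). It was higher in the central zone of all 6 mice, although the 2 ranges overlapped because HNKO 1 stood above the rest. Lrp6 went from 346, 270 and 243 to 211, 195 and 191 CPM in the WT mice and from 273, 248 and 246 to 157, 199 and 256 CPM in the HNKO mice. It was lower in 5 of 6 mice, with HNKO 3 the exception (-0.33 ± 0.09 SE, edgeR adjusted p = 0.014). That call was lost without WT 1 (adjusted p = 0.063) and without HNKO 1 (adjusted p = 0.058), and both Lrp5 and Lrp6 were lost when mouse was not a block (adjusted p = 0.18 and 0.25).

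Lgr4 and Tcf7l2 were not called. Lgr4 stood at 326 ± 21.5 CPM in the portal and 296 ± 55.0 CPM in the central zone (log2 difference -0.04 ± 0.10 SE, edgeR adjusted p = 0.84), lower in 5 mice and higher in HNKO 1 (315 and 393 CPM). Tcf7l2 stood at 655 ± 62.1 and 606 ± 72.8 CPM (-0.01 ± 0.07 SE, edgeR adjusted p = 0.94). Both differences were smaller than their SE.

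**Figure D4:**
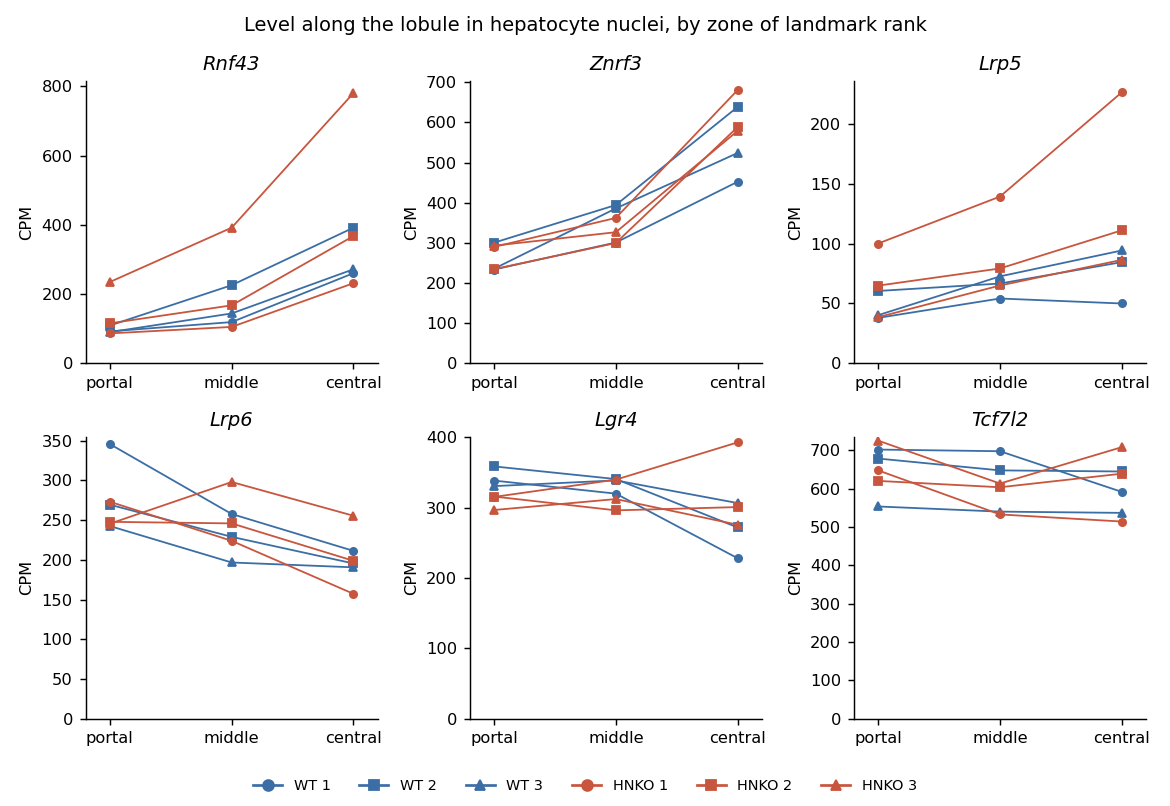
Level (UMIs per 1000000, linear axis from 0) of 6 genes in the portal, middle and central zone of hepatocyte nuclei, a line per mouse with WT in blue and HNKO in red. Rnf43, Znrf3 and Lrp5 rise toward the central zone in all 6 mice (Rnf43 in HNKO 3 from 235 to 781 CPM), Lrp6 falls in 5 of 6, and Lgr4 and Tcf7l2 were not called.

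Of 80 further Wnt pathway genes, 19 were tested along the lobule, with 3 called higher and 1 lower, a share near the 18.7% of all genes. The landmark genes, among them the Wnt targets Glul, Cyp2e1, Cyp1a2, Oat and Slc1a2, had been left out of the lobule fits. Of the 15 listed liver targets, 2 were tested along the lobule, where 13 were tested over all hepatocytes. The share covers the genes that remained and does not describe the pathway as a whole. Lgr5, the R-spondin receptor of central hepatocytes, was higher in the central zone (log2 difference 5.90 ± 0.18 SE, edgeR adjusted p = 2.23e-12), as were Notum, an extracellular Wnt deacylase (2.65 ± 0.25 SE, adjusted p = 4.99e-07), and the β-catenin cofactor Bcl9l (0.81 ± 0.13 SE, adjusted p = 0.00022). Tcf7l1, a TCF factor that mostly represses, was lower (-1.88 ± 0.12 SE, adjusted p = 6.25e-09). The per-mouse levels of Lgr5 were 1.88 to 9.27 CPM in the portal and 206 to 328 CPM in the central zone. Values of Tcf7l1 fell from 169 to 270 CPM at the portal end to 32.0 to 71.6 CPM at the central end. Neither pair of ranges overlapped. For Ctnnb1, which encodes β-catenin, the difference was -0.01 ± 0.15 SE, and none of the intracellular genes apart from Bcl9l and Tcf7l1 was called.

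No genotype difference was called for any of the 10 genes in any cell type. Sums per mouse were tested with edgeR by genotype in hepatocytes, central hepatocytes, other hepatocytes, endothelial and stellate nuclei, where 6, 6, 6, 7 and 5 of the 10 genes passed the filter. At an adjusted p under 0.05 the test called 0 of 11810, 0 of 4306, 0 of 11532, 0 of 2743 and 0 of 2266 genes (0.0% in each). At an unadjusted p under 0.05 it found 5.91%, 2.76%, 6.38%, 3.79% and 7.06% of all genes and 0 of the 10. DESeq2 called 21, 0, 29, 1 and 1 genes (0.178%, 0.0%, 0.251%, 0.0365% and 0.0441%), 0 of them among the 10; the single genes were Flrt2 in endothelial and Pcdh15 in stellate nuclei. A call missed in these fits does not show equal levels, as the standard errors below are wide.

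Among the ligands, endothelial Wnt2 differed by -0.19 ± 0.47 SE on the log2 scale between HNKO and WT mice (edgeR adjusted p = 0.996). For stellate Rspo3 the value was -0.42 ± 0.42 SE (adjusted p = 0.89). Endothelial Rspo3, at -1.66 ± 0.91 SE (adjusted p = 0.996), turned to 0.87 without WT 3, whose level is given above. The ligand values therefore did not leave the spread between mice.

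The receptors and inhibitors had smaller errors in hepatocytes. Over all hepatocytes the log2 difference was -0.12 ± 0.23 SE for Lgr4, -0.09 ± 0.24 for Znrf3, 0.22 ± 0.31 for Rnf43, 0.62 ± 0.42 for Lrp5, -0.16 ± 0.18 for Lrp6 and -0.16 ± 0.20 for Tcf7l2, with adjusted p from 0.83 to 0.95 in edgeR. The median of these 6 was -0.10, beside 0.02 for all genes. Lrp5 was farthest from 0, at 47.9, 71.5 and 70.0 CPM in WT 1, 2 and 3 and at 159, 85.7 and 62.2 CPM in HNKO 1, 2 and 3. Without HNKO 1 the log2 difference was -0.00. In central hepatocytes Lrp5 stood at 0.97 ± 0.51 SE (adjusted p = 1.00, and 0.24 without HNKO 1). Rnf43 turned from 0.22 to -0.13 over all hepatocytes without HNKO 3, the mouse whose levels were highest. Endothelial Znrf3 (0.83 ± 0.40 SE, unadjusted p = 0.058 in the edgeR fit across all genes) had the lowest unadjusted p of any of the 10. Its highest mouse, HNKO 1 at 221 CPM, was at 48.5% of its own hepatocyte level with the highest marker at 38.0%, whereas the pooled value was within the hepatocyte background.

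The genotype difference of the central to portal difference was fitted as an interaction over 9481 genes, of which edgeR called 2 (0.0211%), Rsad2 and Gna14, 1 in each direction (0.0105%), and 5.67% reached an unadjusted p under 0.05. None of the 10 genes was called. Lgr4 had the largest value, 0.39 ± 0.17 SE (unadjusted p = 0.034, adjusted p = 0.85 with edgeR): it was lower in the central than in the portal zone in all 3 WT mice and in 2 of 3 HNKO mice. For Rnf43, Znrf3, Lrp5, Lrp6 and Tcf7l2 the interaction was -0.06 ± 0.15, 0.10 ± 0.15, 0.30 ± 0.23, 0.14 ± 0.18 and 0.00 ± 0.14 SE. None of 80 pathway genes, 37 of which were tested over all hepatocytes, was called by genotype in any type. In the interaction, fitted without the landmark genes, 0 of the 26 tested were called. At an unadjusted p under 0.05 the edgeR fits found 3 of 37 in hepatocytes, 0 of 21 in central and 3 of 33 in other hepatocytes, 1 of 13 in endothelial and 1 of 10 in stellate nuclei, and 3 of 26 in the interaction. Those in other hepatocytes were the central genes Cyp1a2 (-0.81 ± 0.17 SE), Cyp2e1 (-1.04 ± 0.31 SE) and Glul (-0.97 ± 0.32 SE), each with an adjusted p of 0.77 in edgeR. Over all hepatocytes they were Cyp1a2 (-0.62 ± 0.18 SE), Cyp2e1 (-0.84 ± 0.30 SE) and, in the other direction, Nkd1 (1.29 ± 0.48 SE), each at an edgeR adjusted p of 0.82. Glul stood at 0.06 ± 0.23 SE over all hepatocytes and at -0.11 ± 0.31 SE in central ones. Other hepatocytes are what remained beside the central clusters, which took 259 of 2478 HNKO and 131 of 1932 WT hepatocyte nuclei. Of central-zone nuclei, 29.8% to 36.8% lay in central clusters in HNKO mice and 19.6% to 20.6% in WT mice. The part of this in the lower central genes of other hepatocytes was not tested. The genes at an unadjusted p under 0.05 in the interaction were Lgr5 (-1.46 ± 0.52 SE), Tcf7l1 (0.58 ± 0.21 SE) and Ror1 (0.30 ± 0.13 SE), at edgeR adjusted p of 0.83, 0.83 and 0.86. The value of Lgr5 rests on few molecules, given its low portal level above in portal sums of 1061115 to 2057026 UMIs.

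**Figure D5:**
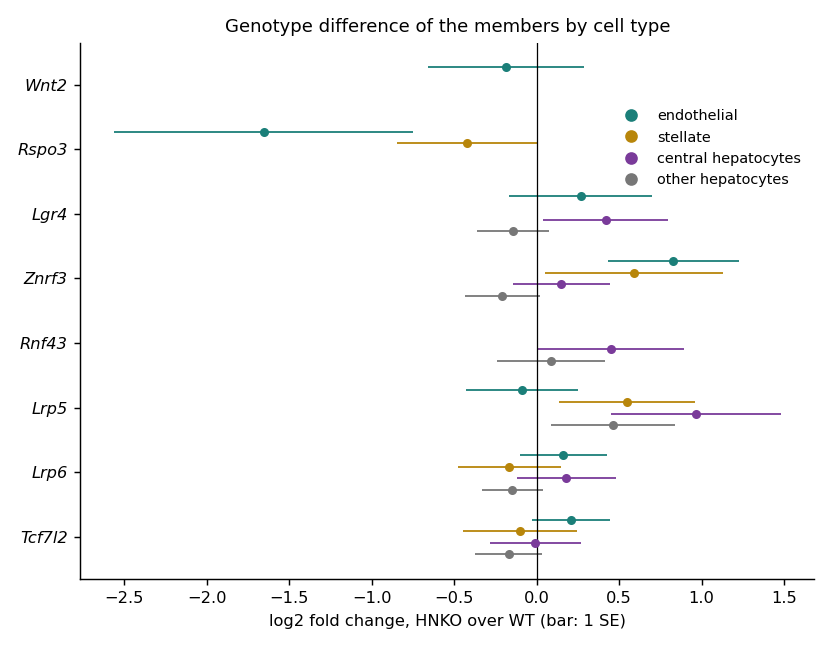
Genotype difference (log2 fold change, HNKO over WT, bar of 1 SE) of the 8 genes that passed the count filter in at least 1 of 4 cell types, from edgeR fits on sums of 3 WT and 3 HNKO mice. Lrp5 in central hepatocytes (0.97) is the highest value and endothelial Rspo3 (-1.66), which turns to 0.87 without WT 3, the lowest.

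The genes whose pattern was most like each of these were looked for among 13655 genes with at least 50 UMIs, by Pearson's r of log2(CPM + 1) over 35 sums of mouse and cell type. The sums of a mouse share its libraries and those of a type share its depth, so r is a description. Wnt2 was closest to the endothelial genes Robo4 (r = 0.95), Afap1l1 (0.95) and Nos3 (0.93). Rspo3 was closest to Ccdc80 (0.91), Mapt (0.89) and Ednrb (0.89). For Lgr4 these were Prr16 (0.92), Slc20a2 (0.91) and Grb14 (0.89), for Rnf43 an unnamed gene (0.87), Bhlhe40 (0.87) and Adra1b (0.86), and for Znrf3 Tmem243 (0.85), Xist (0.82) and Zfp385b (0.82). Tcf7l2 was closest to the Kupffer gene Cd163 (0.80), followed by Kcnj16 (0.78) and Ms4a8a (0.78). Lrp6 (Cnot2 0.78, Slc40a1 0.77, Kidins220 0.75) and Lrp5 (Epm2a 0.59, Zfp532 0.59, then an unnamed gene at 0.58) had no neighbour as close. Among the genes themselves, r was 0.73 between Lgr4 and Znrf3, 0.63 between Lgr4 and Rnf43 and 0.25 between Wnt2 and Rspo3.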

How the data were processed

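Per the labels and the study's methods, nuclei were sequenced with 10x Genomics 3' chemistry, reads were handled with Cell Ranger version 5.0.1 and alevin (submitters' processing notes) on GRCm38 with introns counted, and the authors deposited estimated counts of UMIs per gene and nucleus, of which 10.1% of nonzero values were not whole (tolerance 0.001). The deposited hashtag counts and the authors' cluster names gave mouse and cell type. The authors had removed nuclei with hashtags of several mice; same-mouse doublets remain and no doublet caller was run. The 5193 nuclei are 20.4% of the 25500 sorted. Mice are numbered by hashtag name. In the genotype fits p-values measure the spread between mice. With mouse as a block, those of the lobule fits measure how the zone difference varies across mice.

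For each mouse and each cell type of at least 10 nuclei the estimated counts were added up and rounded. Levels are UMIs per 1000000 of the sum (CPM). Genotype and lobule position were put to the two-sided quasi-likelihood test of edgeR version 4.0.16 (R version 4.3.3) after filterByExpr and TMM scaling (Benjamini-Hochberg over all genes tested, threshold 0.05), after the group model that the authors used for bulk RNA-Seq, with mouse added as a block in the lobule fits. DESeq2 version 1.42.0 was an alternative, as were other scaling, no count filter, other landmark limits, 2 zones in place of 3 along the lobule, a hashtag filter, no replicate block and each mouse left out. The fits were tested on simulated data. Thinned shares are the expected shares at 2000 UMIs per nucleus. The zones of a mouse come from the same animal, which is the pairing behind the block.

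The genes and lists were chosen with earlier results of these data known. Named besides the 10 genes are pathway genes past a threshold, the 3 most similar genes of each, and the vein and portal endothelial genes; genes called singly (Flrt2, Pcdh15, Rsad2, Gna14, Nxph1) were named after their values were seen. Gene positions are from GENCODE M21 on GRCm38, and promoters from RefSeq. Python version 3.11.15, numpy version 2.4.6, pandas version 2.3.3, scipy version 1.17.1 and matplotlib version 3.10.9 were used.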

Additional observations from a re-analysis of the deposited data

Results flagged for a closer look

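Among 31 groups of 6 mice whose highest and lowest values were examined, 4 held a mouse far from the others, where chance flags about 1 in 20. Endothelial Rspo3 was set apart in WT 3, at 489 CPM against 0 to 92.1 CPM in the other 5 mice, from 53 UMIs in 3 nuclei. HNKO 3 stood apart 3 times. Rnf43 was at 147 CPM in its endothelial nuclei, against 18.5 to 65.0 CPM in the others, and at 125 CPM in its stellate nuclei, against 6.35 to 39.9 CPM. Beside these, Rnf43 was also highest in the hepatocytes of HNKO 3 (444 CPM), and its endothelial and stellate levels were 33.2% and 28.2% of that, where the 8 hepatocyte markers were at 22.6% to 63.6% and 16.0% to 59.6% in the same nuclei. Wnt2 in other hepatocytes was at 1.38 CPM (7 UMIs) in HNKO 3, against 0.233 to 0.538 CPM (1 to 3 UMIs) in the other mice. HNKO 3 was also the mouse with the lowest share of its own hashtag (45.6%), whose part in these values was not tested.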

How the results depend on the processing

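The absence of a genotype call for the 10 genes held under every alternative run in each of the 5 cell types, and the calls of Rnf43 and Znrf3 along the lobule held under all 13. With mouse as a term left out (no replicate block), 2 of the 10 genes were called along the lobule, Rnf43 and Znrf3, and 288 of all genes instead of 1588; Lrp5 (1.06), Lrp6 (-0.35) and Bcl9l (0.79) were no longer called there, and the interaction called 0 genes. The direction of these 3 was the same. Leaving out a mouse gave 3 to 4 of the 10 genes along the lobule; Lrp6 was not called without WT 1 (-0.27) or HNKO 1 (-0.26).

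Counts over all genes moved more. DESeq2 called 21 genes in hepatocytes, 29 in other hepatocytes, 1 each in endothelial and stellate nuclei and 1052 along the lobule. Without a count filter 35, 18, 111, 16 and 29 genes were called in hepatocytes, central hepatocytes, other hepatocytes, endothelial and stellate nuclei, and 36 in the interaction. Leaving out each mouse gave 0 to 32 calls in hepatocytes, 0 to 38 in other hepatocytes, 0 to 47 in stellate nuclei and 1 to 19 in the interaction. The highest count came without HNKO 2 each time, 1 stellate gene (Nxph1) was called without WT 2, and the interaction called 1 gene (Gna14) without WT 3. The interaction called 1 gene with 2 zones in place of 3. The cause of these shifts was not tested.

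Values near 0 changed sign. Tcf7l2 turned to 0.049 without a count filter and 0.027 with the hashtag filter in central hepatocytes, and along the lobule to 0.0022 without the filter, 0.036 with 2 zones and 0.0042 with a landmark minimum of 10, while its interaction turned to -0.0010 with RLE size factors and -0.00094 with DESeq2. Endothelial Lrp5 turned to 0.080 without the filter, which by itself moved the median of all genes by 0.35 there (0.23 in central hepatocytes, 0.38 in stellate nuclei). With a mouse left out, log2 differences spanned 0 in hepatocytes for Lgr4 (-0.32 to 0.060), Znrf3 (-0.29 to 0.075), Rnf43 (-0.13 to 0.45) and Lrp5 (-0.00046 to 0.96), in other hepatocytes for Lgr4 (-0.32 to 0.018), Rnf43 (-0.29 to 0.34) and Lrp5 (-0.043 to 0.77), in central hepatocytes for Znrf3 (-0.013 to 0.30), Rnf43 (-0.021 to 0.77), Lrp6 (-0.010 to 0.35) and Tcf7l2 (-0.12 to 0.14), in endothelial nuclei for Wnt2 (-0.65 to 0.25), Rspo3 (-2.22 to 0.87), Lgr4 (-0.062 to 1.00) and Lrp5 (-0.26 to 0.27), and in stellate nuclei for Tcf7l2 (-0.48 to 0.13). Along the lobule this held for Lgr4 (-0.16 to 0.037) and Tcf7l2 (-0.043 to 0.018), and in the interaction for Rnf43 (-0.12 to 0.042), Lrp6 (-0.025 to 0.32) and Tcf7l2 (-0.092 to 0.069).

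Counting only nuclei with at least 50% of hashtag counts from their own mouse left 118 of 245 endothelial nuclei, 69 of them from HNKO 1, of which 17.8% held a ligand UMI. It put stellate Rspo3 at 357 CPM as the mean of 2 mice, WT 3 and HNKO 1. The stellate fit under that filter could not be made with these 2, and the endothelial one had a lone WT mouse that was assumed to vary like the others. The 2 alternatives for endothelial nuclei with a ligand (each mouse left out, 22.2% to 27.6%, and this hashtag filter) were chosen after seeing the data. Depth limits the ligands: endothelial and stellate sums held 56672 to 317702 UMIs, and Wnt9b and Rspo1 could not be tested.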
